A study of Drosophila melanogaster with 2 samples.

Results

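The fly gene nmo (FBgn0011817) is the gene that was tagged in this chromatin immunoprecipitation and sequencing (ChIP-seq) series. It lies on the plus strand of chromosome 3L at 7979046-8054147 (assembly dm6) and spans 75.1 kb. The region described is nmo with 20 kb on each side, 7959046-8074147, and a peak was counted in it by its summit, the base of highest signal within the peak. By this rule the region held 11 of the 9299 peaks of the IDR list, in which the authors kept peaks by irreproducible discovery rate, a measure of how well ranks repeat between replicates. It held 53 of 30000 peaks in the list called on both replicates together (the pooled list), 62 of 30000 in replicate 2 and 40 of 30000 in replicate 3. One gene, nmo, was thus examined out of 18277 annotated genes, 13968 of them protein-coding.

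The series has 1 group, nmo-eGFP embryos, with 2 biological replicates numbered 2 and 3 that the labels list as separate biosamples. The material was whole Drosophila melanogaster embryos aged 0 to 24 h, males and females mixed, from a single transgenic strain named nmo-GFP, whose insertion targets nmo and whose Nemo protein carries GFP at its C-terminus. Sonicated chromatin was precipitated with an antibody against GFP, which is directed at the tag and not at untagged Nemo. How much DNA was recovered without the tagged protein was not tested. The sources used here do not give the site of the insertion or the number of nmo copies in the strain, and neither an input nor a mock sample was analysed. Whole embryos over a full day of development give a mixture of cells and stages, and no tissue can be told apart. No comparison between groups follows from the labels, so the values are descriptions, with the whole lists as background.

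Nemo belongs to the Nemo-like kinases, which phosphorylate serine or threonine next to proline. In flies it was first described for the rotation of ommatidia in the eye, a process of planar cell polarity, and it also acts on the transcription factors at the end of the Wnt and BMP pathways and on the clock protein Period. ChIP recovers DNA that is cross-linked to the tagged protein directly or through other proteins.

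The sequence under 6 of the 11 IDR summits is shown with 100 bases on each side of it, read from the plus strand of the RefSeq genome, Release 6, which is numbered as dm6 is. The first 2 come from the divergent promoters with the strongest signal in the region, between Pop4 and nmo (chr3L:7978792-7978992) and between HP4 and CG8209 (chr3L:7976177-7976377). The other 4 come from the long intron of nmo and show its strongest summit (chr3L:7988908-7989108), the pair near 46 and 51 kb into the gene (chr3L:8024884-8025084 and chr3L:8029465-8029665) and the summit that had no replicate 3 peak (chr3L:7996498-7996698). Capitals mark the letters TATAAA (the TATA box, in reverse TTTATA) or CAGCTG (an E-box).
Pop4 and nmo promoter: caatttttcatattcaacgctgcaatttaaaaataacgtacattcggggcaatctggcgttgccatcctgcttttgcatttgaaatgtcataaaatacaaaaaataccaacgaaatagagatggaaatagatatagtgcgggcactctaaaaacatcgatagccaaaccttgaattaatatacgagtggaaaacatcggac
HP4 and CG8209 promoter: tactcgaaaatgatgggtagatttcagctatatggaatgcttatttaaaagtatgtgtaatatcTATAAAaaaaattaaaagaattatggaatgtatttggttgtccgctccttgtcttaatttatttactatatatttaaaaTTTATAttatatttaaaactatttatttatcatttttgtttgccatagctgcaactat
Long intron, strongest summit: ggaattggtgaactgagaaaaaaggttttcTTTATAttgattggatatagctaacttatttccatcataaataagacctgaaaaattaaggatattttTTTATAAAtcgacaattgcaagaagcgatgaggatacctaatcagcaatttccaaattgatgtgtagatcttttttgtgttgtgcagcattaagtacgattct
Long intron, summit 7996598: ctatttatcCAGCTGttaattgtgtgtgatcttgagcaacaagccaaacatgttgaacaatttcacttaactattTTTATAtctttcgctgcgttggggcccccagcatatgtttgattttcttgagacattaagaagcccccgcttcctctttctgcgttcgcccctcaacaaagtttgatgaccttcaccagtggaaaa
Long intron, summit 8024984: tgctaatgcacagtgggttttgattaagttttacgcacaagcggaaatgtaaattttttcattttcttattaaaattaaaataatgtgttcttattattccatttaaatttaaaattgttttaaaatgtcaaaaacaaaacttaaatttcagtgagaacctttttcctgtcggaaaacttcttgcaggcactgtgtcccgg
Long intron, summit 8029565: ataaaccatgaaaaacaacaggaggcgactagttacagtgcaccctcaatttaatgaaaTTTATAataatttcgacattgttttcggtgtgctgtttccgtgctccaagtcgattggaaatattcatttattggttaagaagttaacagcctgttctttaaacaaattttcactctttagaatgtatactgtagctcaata
None of these 6 windows, nor the other 5, overlapped an annotated exon.

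The 11 IDR peaks fell into a promoter cluster, 2 groups in the long intron, and outlying peaks on both sides. Along the gene, 3 lay in the 20 kb before the start of nmo, 7 within the gene and 1 in the 20 kb after its end. All 7 within the gene were in intron 3 of the longest transcript, nmo-RH, which runs over 7980983-8039874, is 58.9 kb long and makes up 78.4% of the gene. The other 7 introns of that transcript held no summit in any of the 4 lists, the longest of them being intron 4 with 5.89 kb. Pooled summits in intron 3 numbered 30, and there were 34 in the replicate 2 list and 21 in the replicate 3 list. The 11 IDR peaks were 187 to 490 bp wide with a median of 436 bp. That median is also the commonest width in the deposited pooled and IDR lists. It was the width of 81.8% of all pooled peaks, 43.4% of all IDR peaks and 4 of the 11.

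**Figure D1:**
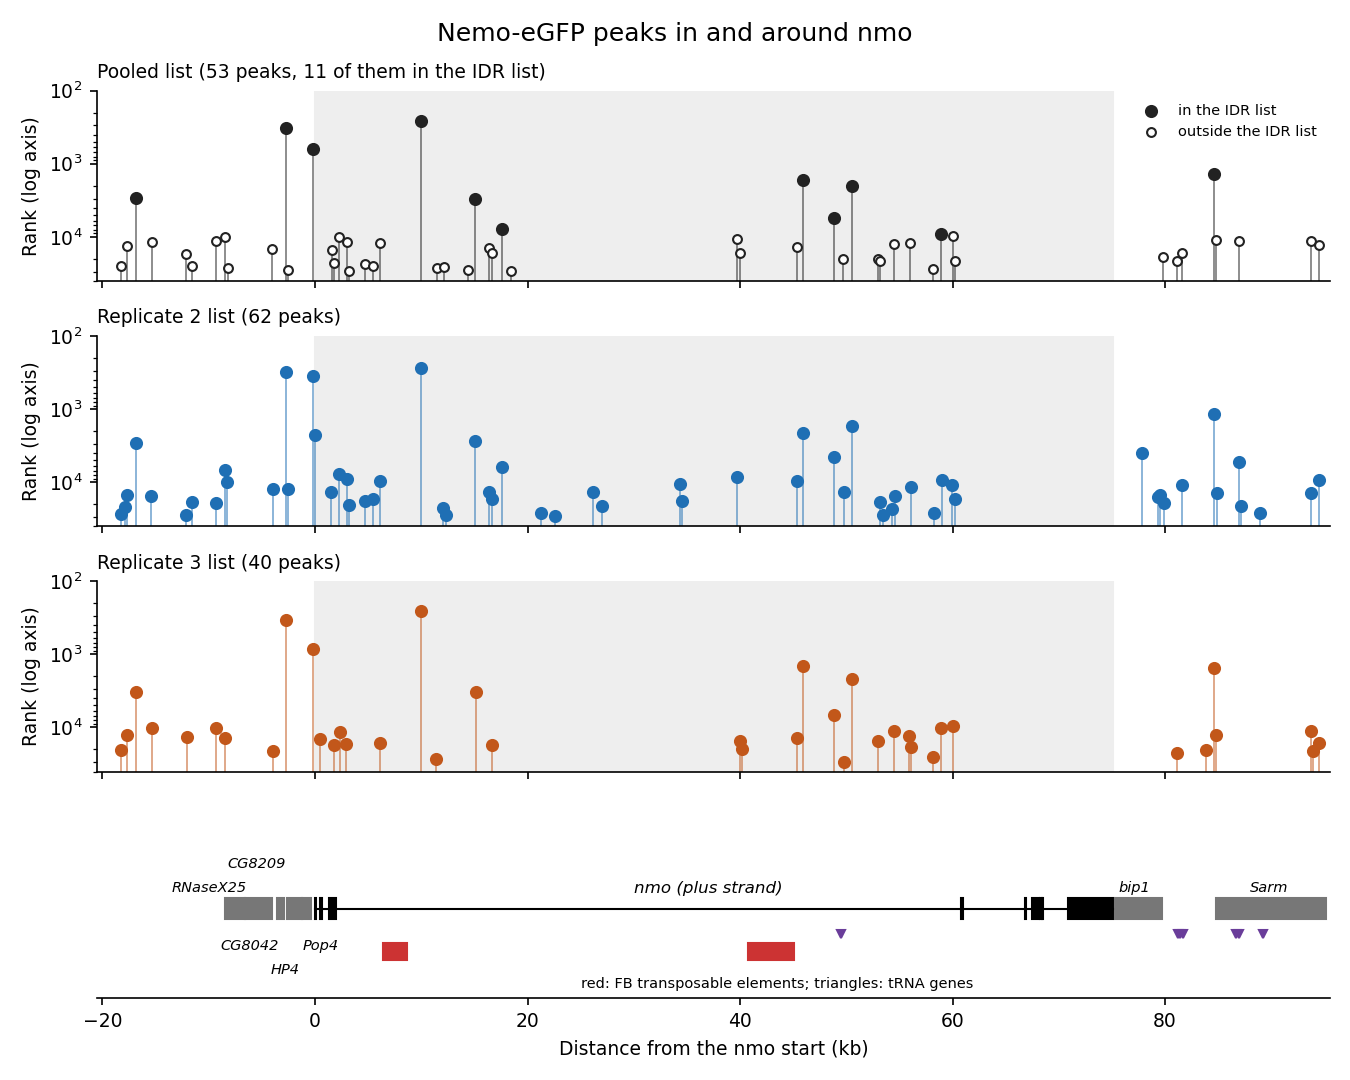
Peaks along nmo and 20 kb on each side. The horizontal axis is the distance from the nmo start in kb, the vertical axis of the 3 upper panels is the rank of each peak within its list on a log axis with the strongest at the top, and grey shading marks the gene. The lowest panel shows nmo (exons as black boxes), most of the neighbouring coding genes in grey, tRNA genes as triangles and transposable elements in red. The strongest peaks lie at -2.77, -0.154 and 9.96 kb in every list, and the stretch from 18.4 to 39.8 kb has no pooled or replicate 3 summit.

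The strongest peak of the region was intronic. Its summit at 7989008 lay 9.96 kb after the start of nmo. It ranked 261 in the pooled list, where its signal value was 1762.3. Signal values are the caller's own scale and are compared here only within a list, mostly as ranks with rank 1 the strongest. The peak ranked 279 in replicate 2 (signal value 580.1) and 256 in replicate 3 (1185.7), and the replicate summits were 7 bp apart. Second was the peak between HP4, a gene for a heterochromatin protein, and CG8209, at summit 7976277. Its pooled signal value was 1611.2, and it ranked 327 in the pooled list, 312 in replicate 2 and 340 in replicate 3. These 2 peaks held nearly the same place in all lists.

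The peak at the start of nmo itself came next. Its summit at 7978892 lay at -154 bp from the nmo start and at -242 bp from the start of Pop4, a gene for a protein subunit of ribonuclease P, which runs the other way. The starts of this pair are 396 bp apart, so the summit cannot be assigned to either gene. The pooled signal value was 1170.9 at rank 631. Replicate 2 had it at rank 351 (signal value 531.9) and replicate 3 at rank 852 (646.7), a ratio of 2.43 and the widest among the 10 IDR peaks of the region found in both replicates. Only replicate 2 had a second peak here, with its summit at 7979091, 45 bp inside the gene, signal value 199.5 and rank 2295. Replicate 3 had a weak peak at 7979536, 490 bp inside the gene, at rank 14420, which overlapped no pooled and no replicate 2 peak.

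Of the remaining intronic IDR peaks, 2 lay in the 5' portion of the intron. The peak at 7994135, 15.1 kb into the gene, ranked 3090 in the pooled list, 2778 in replicate 2 and 3279 in replicate 3. The peak at 7996598, at 17.6 kb, ranked 7848 in the pooled list and 6114 in replicate 2, and no replicate 3 peak overlapped it. The nearest replicate 3 summits to either side of it were at 7995666 and 8019002. It was therefore an IDR peak supported by 1 replicate list, as were 119 IDR peaks with replicate 2 alone and 142 with replicate 3 alone in the whole list.

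The other 4 intronic IDR peaks lay between 45.9 and 58.9 kb. The peak at 8024984 ranked 1695 in the pooled list, 2161 in replicate 2 and 1456 in replicate 3. The peak at 8029565 ranked 1993 in the pooled list, 1735 in replicate 2 and 2173 in replicate 3. Between them, the peak at 8027843 ranked 5555 in the pooled list, 4488 in replicate 2 and 6812 in replicate 3. The replicate summits were 2 bp apart at 8024984 and 1 bp apart at the other two. The last, at 8037921, was close to the IDR threshold, at rank 9094 of 9299 in the pooled list, 9443 in replicate 2 and 10205 in replicate 3. The first pooled peak beyond the threshold, at 8039043, ranked 9634 in the pooled list, 10844 in replicate 2 and 9454 in replicate 3, so the replicate ranks of these neighbours interleave.

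Outside the gene, the IDR peak at 7962231 lay at -16.8 kb from the nmo start and at -8357 bp from the start of RNaseX25, a ribonuclease gene. It ranked 2994 in the pooled list, 2904 in replicate 2 and 3248 in replicate 3. After the gene, the peak at 8063646 lay at -228 bp from a start of Sarm, which encodes an NAD-cleaving enzyme needed for axon degeneration. It ranked 1371 in the pooled list, 1154 in replicate 2 and 1538 in replicate 3.

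At the IDR peaks, the order by rank was close to the same in both replicates. These peaks were selected with the same 2 replicates, so their agreement is in part fixed by the selection. Over the 10 IDR peaks found in both, Spearman's rho between the replicate ranks was 0.95, and over the 9038 such peaks of the whole list it was 0.80. Over the 41 pooled peaks of the region found in both replicates it was 0.55, against 0.79 over 21749 in the whole list. Points share the 2 libraries, and 16 of the 41 peaks share a replicate peak with another pooled peak, so these coefficients only describe the lists. One such case stands out in rank. The pooled list has 2 entries with the interval 7976053-7976498, and the weaker, with its summit at 7976479 and rank 28087, meets the replicate 3 peak of rank 340 that belongs to the stronger.

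**Figure D2:**
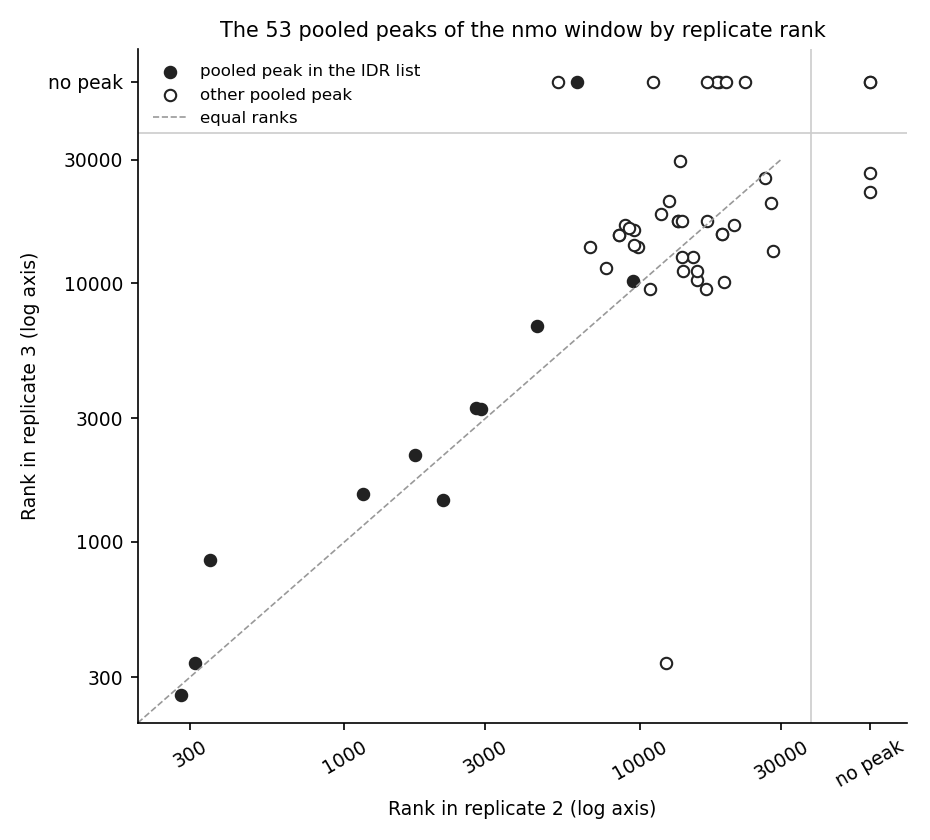
Rank in replicate 2 (horizontal, log axis) and replicate 3 (vertical, log axis) for the 53 pooled peaks of the region, with peaks missing from a replicate list along the outer strips and the dashed line at equal ranks. Filled points are the 11 IDR peaks, of which 10 lie near the dashed line and 1 has no replicate 3 peak. The open point near rank 340 in replicate 3 is the weaker of 2 pooled entries on the same interval.

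The distance between the replicate summits had a median of 9 bp (range 1 to 113, n = 10) in the region, and 6 of 10 (60%) were within 10 bp. In the whole IDR list the median was 25 bp (n = 9038) and 27% were within 10 bp. The widest distances were 113 bp at 8037921, 51 bp at 8063646 and 48 bp at 7994135. The medians are descriptions, and peaks of the whole list were not matched for strength.

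**Figure D3:**
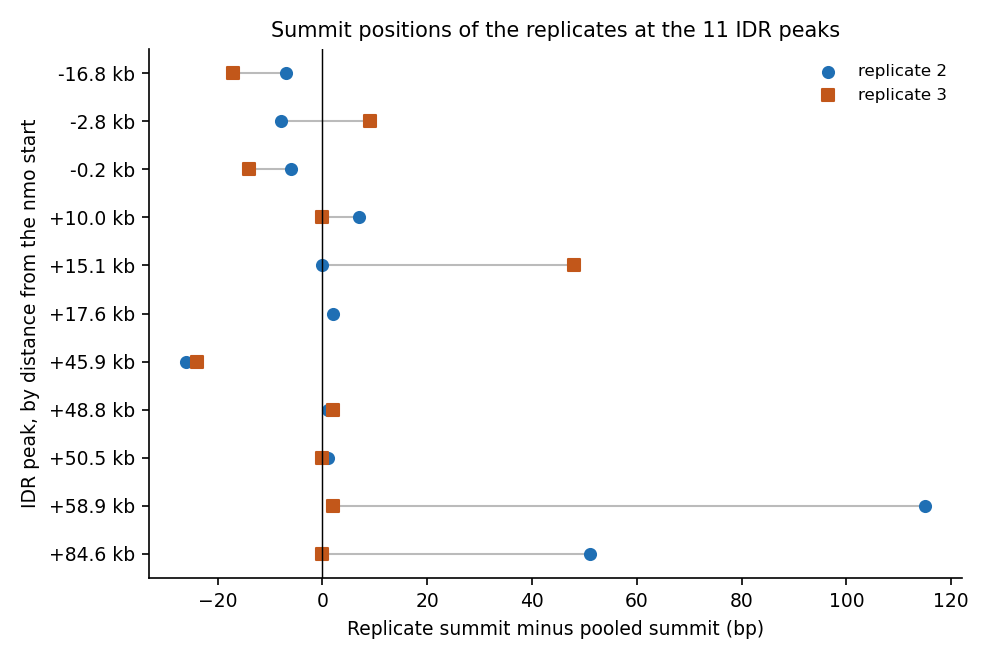
Distance in bp of each replicate summit from the pooled summit (horizontal) for the 11 IDR peaks, ordered by distance from the nmo start (vertical). Circles are replicate 2 and squares replicate 3, and the peak at 17.6 kb has no replicate 3 square. Most pairs lie within 20 bp of each other, and the widest is 113 bp apart at 58.9 kb.

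The weaker peaks of the region were shared between the replicates less fully than its IDR peaks. In the pooled list, 11 of the 53 peaks (20.8%) were IDR peaks, where 31.0% were in the whole list. A deposited q-value of at most 0.05 was reached by 30 of 53 (56.6%), against 53.8% in the whole list. Both replicates overlapped 41 of the 53 (77.4%, against 72.5% of the whole list), replicate 2 alone 8, replicate 3 alone 2, and 2 had no replicate peak. In the rest of the pooled list replicate 2 alone overlapped 10.3% and replicate 3 alone 14.8%. When the replicate summits had to lie within 100 bp of the pooled summit, 27 of 53 (50.9%) remained, against 55.7% in the rest of the list. For the IDR peaks of the region the share overlapped in both replicates was 10 of 11 (90.9%), against 97.2% of the whole list. The IDR list is the top 9299 of the pooled list, so its lower share here means that fewer pooled peaks of the region ranked that high. Overlap in both replicates differed by rule. By at least 1 bp it was 77.4% against 72.5%, and for summits within 100 bp it was 50.9% against 55.7%. How this bears on the IDR share was not tested. Peaks found in 1 replicate alone were more often from replicate 2 in the region and from replicate 3 in the rest of the list. With 53 peaks, these differences were not tested.

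The 42 pooled peaks outside the IDR list ranked 9634 to 29835, with signal values of 35.5 to 158.1, and 31 of them were overlapped in both replicates. As background, both replicates overlapped 21749 of all 30000 pooled peaks, and 9038 of the 9299 IDR peaks among them. The 3 strongest were at 8039043 (158.1), at 7981342 (152.5), which is 2296 bp into the gene, and at 7970611 (151.5), which is 23 bp into RNaseX25. In exons there were 6 of the 53 pooled summits and none of the IDR summits. Of these, 7980632 and 7980843 were in an exon of nmo, at ranks 15019 and 22489. The share of summits in exons over the whole lists was not computed, so the exon counts only describe positions.

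The replicate lists differed in how much of the region they covered. Replicate 2 had 62 peaks here and replicate 3 had 40, although each list holds 30000. Among the replicate 2 peaks, 41 of 62 (66.1%) overlapped a replicate 3 peak, against 75.7% of that list. Among the replicate 3 peaks, 35 of 40 (87.5%) overlapped a replicate 2 peak, against 69.4% of that list. When the 9299 strongest peaks of 1 replicate took the place of the IDR list, the region held 18 summits with replicate 2 and 9 with replicate 3. Since each list ends at 30000 peaks, a site that is missing from 1 list may still have reads there, and read depth was unknown.

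The strongest peak seen in a single list was a replicate 2 peak at 8056858, inside bip1, the gene next to the nmo end. It had a signal value of 142.2 and rank 4058, lay at -483 bp from the inner of the bip1 starts, and overlapped no pooled and no replicate 3 peak. Among the 4058 replicate 2 peaks of this rank or stronger, 20 (0.493%) overlapped no pooled peak, and 16 of these overlapped no replicate 3 peak either. Replicate 2 also had a peak at 8065960 near tRNA:Leu-CAG-1-6 at rank 5286. It overlapped a pooled peak of rank 11360 and no replicate 3 peak.

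Summits were spaced unevenly along the intron. Neighbouring IDR summits had a median distance of 6741.5 bp in the region (1722 to 28386 bp, 10 distances) and of 3993 bp in the long intron. The longest, 28.4 kb, ran from 7996598 to 8024984. For pooled summits the median distance was 900 bp and the longest was 21.3 kb, from 7997481 to 8018797. This gap splits the intron into 3 stretches. The 16.5 kb before it held 3 IDR and 15 pooled summits, the 21.3 kb of the gap held none of either, and the 21.1 kb after it held 4 IDR and 15 pooled summits. Replicate 3 had 7, 0 and 14 summits in these stretches in the same order.

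Replicate 2 had summits within the gap, with 13, 6 and 15 summits in the 3 stretches. Its 6 gap summits were at 8000302, 8001676, 8005196, 8006086, 8013428 and 8013630, and their ranks ran from 10444 to 28947. Only those at 8005196 and 8013428 had a deposited q-value of at most 0.05. None of the 6 overlapped a pooled or a replicate 3 peak. The GC content of the gap was 37.7%, against 38.5% before it and 37.4% after it. Soft-masked repeats made up 21.3% of the gap, less than the 28.2% before it and the 35.9% after it.

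A second stretch without pooled summits ran for 19.6 kb from 8039305 to 8058889. It covers the 3' portion of nmo, from the end of the long intron at 8039875 to the end of the gene, where no list had a summit in 14.3 kb. All 3 annotated stop codons of nmo are there, at 8048074 (3 transcripts), 8049921 (4 transcripts) and 8049948 (1 transcript). The labels do not say to which of these ends the tag was fused. Replicate 2 had 4 summits in this stretch, 1 at 8039308 in the long intron and the others in bip1.

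Another stretch of 5.39 kb without pooled summits, from 8019002 to 8024397, was 76.2% soft-masked and coincides with a transposable element. The reference annotation has 2 foldback (FB) elements in the long intron, at 7985423-7987688 and at 8019755-8024109, the second with a NOF element inside it at 8022597-8023088. None of these held a summit in any list. The nearest pooled summits were 298 bp from the first FB element and 288 bp from the second. Repeats can hide peaks where reads do not map to 1 place. Whether the authors kept such reads is not stated in the labels, and the effect on the gaps was not tested.

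Per 10 kb, the long intron held 1.19 IDR and 5.09 pooled summits, against 0.676 and 2.18 over the genome. The genome values count the full length of all chromosome arms and the Y, repeats included, which lowers them where no peak can be called. The part of this and of nmo copy number in the difference was not tested. The 20 kb before nmo held 1.5 and 6.5, and the 20 kb after it 0.5 and 4. The intron was poorer in GC, at 37.8% against 42.1% for the genome, and more of it was soft-masked, at 28.5% against 20.9%.

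Beside nmo itself, 18 annotated genes touched the region, of which 9 were protein-coding, 7 were tRNA genes and 2 were noncoding RNA genes. An IDR summit lay within 500 bp of a start of 5 of the 10 coding genes, against 39.8% of all coding genes. They were HP4, CG8209, Pop4, nmo and Sarm, and they share 3 summits, since 4 of them stand in head-to-head pairs. The starts of HP4 and CG8209 are 252 bp apart, with the summit at -123 bp from HP4 and at -129 bp from CG8209. A pooled summit lay within 500 bp of 8 of 10 coding genes, against 56.3%, which adds RNaseX25 (rank 9972), CG8042 (rank 14563) and bip1 (rank 18614). CG42590 and CG42591, which lie within the span of Sarm on the other strand, had none in any list.

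The 1 gene annotated inside nmo is tRNA:Ala-AGC-2-1, an alanine tRNA gene at 8028546-8028618 on the minus strand of the long intron. Its nearest pooled summit, 8028760, was at -142 bp from its start, at rank 20427, and the overlapping peaks ranked 13633 in replicate 2 and 29520 in replicate 3. The nearest IDR summit, 8027843, was 775 bp beyond the start in the direction of transcription. The other 6 tRNA genes form the tRNA:Leu-CAG group after nmo, 3 of them within Sarm. No tRNA gene had an IDR summit within 500 bp of its start. Over all 290 annotated tRNA genes, 11.0% had one. A pooled summit lay that close to 6 of 7, against 49.7% of all tRNA genes. A replicate 2 summit lay that close to 7 of 7, against 57.6%, and a replicate 3 summit to 3 of 7, against 31.7%. Neighbouring genes share these summits: 8060166 and 8060677 are the pooled summits near tRNA:Leu-CAG-1-2, -1-3 and -1-4, and 8066030 is the pooled summit near tRNA:Leu-CAG-1-5 and -1-6. Of the pooled summits near tRNA genes, only 8066030 had a q-value of at most 0.05, and no replicate 3 peak overlapped that peak. The antisense RNA genes asRNA:CR45867 and asRNA:CR45868, both within bip1, had none in any list.

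Set against genes of similar length, nmo held more summits than most. Of the 122 protein-coding genes of 60 to 90 kb, nmo held 7 IDR summits against a median of 2 (range 0 to 15), and 16 genes held more. It held 32 pooled summits against a median of 12.5 (range 0 to 50), and 10 genes held more. An IDR peak within 500 bp of a start was found in 56 of the 122. Against the 54 introns of 50 to 70 kb, a comparison added after the values were seen, the nmo intron held 7 IDR summits against a median of 0, and none held more. Introns of Drak and CG33158 held as many. In pooled summits it had 30 against a median of 3.5. The 2 introns with more, of CG46467 and Glut4EF, overlap and are 1 stretch of chromosome 3R. The medians are low because 19 of the 54 introns, in 11 genes, held no pooled summit, and several of these are introns of the same gene. They include introns of CG17684, DIP-lambda, Myo81F, Parp1 and lovit, and that of kl-5 on the Y chromosome. The 54 introns were matched to the nmo intron by length alone, and not by place on the chromosome or repeat content. Over the 35 introns with a pooled summit the median was 3 IDR and 11 pooled summits. These are counts within the same lists and carry no test, and the part of nmo copy number in them was not tested.

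The genes most like nmo were found by a distance over 3 measures, namely the IDR and the pooled counts within the gene, as log2(count + 1), and the log2 signal value of the promoter IDR peak. The closest of the 122 was tai, a steroid receptor coactivator gene, at a distance of 0.63 with 7 IDR and 23 pooled summits. SNF4Agamma, a gene for a subunit of AMP-activated kinase, followed at 0.72 with 12 and 31. Then came rdx, a gene for a ubiquitin ligase adaptor of Hedgehog signalling, at 1.02 with 13 and 50. Next were mtd at 1.16 with 3 and 21, and mam, a Notch coactivator gene, at 1.18 with 14 and 38. The promoter signal values ran from 716.8 at mam to 1304.2 at SNF4Agamma, with nmo at 1170.9 between them. The promoter measure took the strongest IDR peak within 500 bp of any annotated start. Of these starts nmo has 1, tai 2, mam 3, rdx 4, and SNF4Agamma and mtd 11 each. The likeness was not adjusted for this number.

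**Figure D4:**
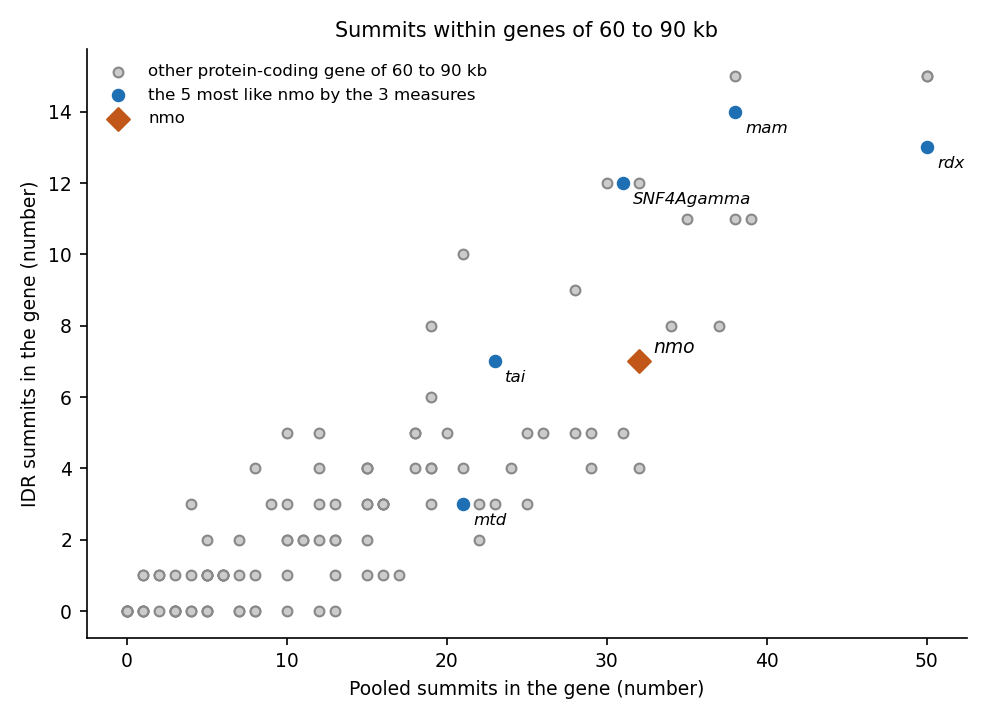
Pooled summits (horizontal) and IDR summits (vertical) within each of the 122 protein-coding genes of 60 to 90 kb, 1 point per gene. The diamond is nmo, with 32 pooled and 7 IDR summits, and the filled circles are the 5 genes most like it. Most genes lie below and to the left of nmo.

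A list of 7 genes whose products act with or are phosphorylated by Nemo in flies was looked up as well. An IDR summit lay within 1000 bp of a start of 4 of the 7, against 43.8% of all coding genes, so the share was not far from the background. Mad, the transcription factor of BMP signalling, had a signal value of 1605.9 at rank 329, at -665 bp from a start. The planar polarity genes pk and Vang had ranks of 1293 and 5511, and pan, the TCF gene of Wnt signalling, had rank 7618. The genes arm (beta-catenin), eya and per had pooled summits alone, at ranks 12445, 12975 and 14446. A pooled summit was thus near all 7, against 61.8% of all coding genes.

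Motif letters were searched on both strands of the bases within 100 bp of the 11 IDR summits. TATAAA was in 8 of 11, against 39% of all 9299 IDR windows, and at 7989008 its forward and reverse matches overlap each other. TAATTA, the homeodomain core, was in 3 against 18.9%, and GAGAG, the GAGA factor letters, in 2 against 18.8%. CAGCTG was in 2 against 8.72%. CTTTGAT, the TCF letters, was in 1, at the Sarm summit 8063646, against 3.53%. The DRE letters TATCGATA were in none, against 5.9%. The other motifs with no match were the Zelda letters CAGGTAG, found in 0.613% of all IDR windows, and the E-box CACGTG, found in 1.79%. The Mad letters GCCGNCG, found in 2.95%, and Motif 1, found in 2.6%, had no match either. Matches of different motifs did not overlap in these windows. The windows at the nmo promoter and at 8024984 held no match to any of these motifs. GC content had a median of 30.3% (21.9 to 46.3%) over the 11 windows, against 33.3% over all IDR windows. The part of base composition in the TATAAA count was not tested. The highest GC contents, 46.3% and 41.8%, were at the 2 weakest IDR peaks, 8037921 and 7996598.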

How the data were processed

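The 4 deposited peak lists (pooled, replicate 2, replicate 3 and IDR) are in narrowPeak format on assembly dm6. Per the deposited text notes, the authors called peaks on the alignments of each replicate and of both together, each with 1 further file. The aligner, peak caller, IDR threshold and read depth are not given in the sources used here. The signal value is the authors' caller score, deposited without a stated scale, and was used within a list only, for ranks and, as a log2 value, in the likeness of genes to nmo. The −log10 q-value in the deposited lists reaches at most 4.27 in the pooled list. The deposited summit offset was turned into a 1-based position. All 9299 IDR peaks were identical entries of the pooled list, at its ranks 1 to 9299.

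Genes came from Ensembl release 115 after removal of 5889 transposable element entries, and sequence from RefSeq Release 6. Replicate peaks matched by an overlap of at least 1 bp, and the nearest summit was taken as the partner. Work was done in Python 3.11.15 with pandas 2.3.3, numpy 2.4.6, scipy 1.17.1 and matplotlib 3.10.9. Overlap and motif code was tested on simulated data. Named are nmo, all genes touching the region, all IDR peaks, the 3 strongest other pooled peaks, the 5 coding genes of 60 to 90 kb most like nmo, and 7 genes that act with Nemo. Members and lists were chosen with earlier results of these data known.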

Additional observations from a re-analysis of the deposited data

How the results depend on the processing

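The count of 11 IDR summits became 7 without flanks and 18 with flanks of 50 kb, and 8 with the stronger portion of the IDR list. From 1 replicate alone it ranged from 9 to 18. The count of 53 pooled summits became 32 without flanks and 30 at a q-value of at most 0.05, and ranged from 40 to 62 in the replicate lists. The 41 pooled peaks found in both replicates fell to 27 when summits had to lie within 100 bp. The median IDR spacing of 6741.5 bp became 900 bp with all pooled peaks and 5120 to 7652.5 bp from 1 replicate alone. The intronic count of 7 ranged from 5 to 9, the rank of the promoter peak (631) from 351 to 852 and the rank of the strongest peak (261) from 256 to 279. Fewer or more bases or peaks counted account for the changes with flank, q-value and pooled list by construction; the cause of the others was not tested. Of 27 alternatives, 8 moved a count by more than 1.5 times or another value by more than the SD of the replicates. Ranking by the deposited p-value column was not run, since that column holds -1 throughout. No paired analysis was possible because there is 1 group and no test.

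Limits: with 2 replicates, the spread of each value rests on a single difference. Each list of 30000 peaks ends at a fixed number, so absence from a list is no measure of absent signal.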
